A study of Mus musculus with 5 samples.

Results

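Sox2 and Sox9 are transcription factor genes of neural stem and glial progenitor cells, and the peaks around them were read out from 5 chromatin immunoprecipitation sequencing (ChIP-seq) libraries of mouse gliomas. All peaks that overlapped a window of 200 kb at each gene on the mouse build mm9 were taken, chr3:34450000-34650000 for Sox2 and chr11:112550000-112750000 for Sox9. These were 71 of the 258727 peaks in the 5 lists, 40 at Sox2 and 31 at Sox9. The gene positions used were 34.549 Mb and 112.644 Mb, each known to the nearest kb, and distances are given from them. The bounds of the windows were set by gene position, not by measured values, but the windows were chosen with earlier results of these data known.

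The tumours were brain gliomas induced by PDGFB and collected 25 days after virus injection in mice of a mixed C57Bl/6, 129Sv and CD-1 background. Control tumours carried floxed alleles that included P53. Olig2cKO tumours carried these same alleles and floxed Olig2 alleles, so that the 2 genotypes differed, per the labels, in Olig2. Olig2 was precipitated from control tumours. Histone H3 acetylated at lysine 27 (H3K27ac) and histone H3 trimethylated at lysine 4 (H3K4me3) were each precipitated from both genotypes. Each group had 1 library. The source of Cre, the cells it acts in and the number of tumours behind a library are not given in the sources used here, and with Olig2 mapped in control tumours the loss of Olig2 could not be checked.

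Sox2 encodes a factor of the SoxB1 group that keeps neural stem cells undifferentiated. Its gene has a single exon and lies inside the long noncoding RNA gene Sox2ot in the RefSeq table for GRCm38.p6. Sox9 encodes a factor of the SoxE group that acts in neural stem cells and in the choice of a glial fate, and its gene lies in a gene desert with enhancers at long range. Olig2 is a basic helix-loop-helix factor of the oligodendrocyte lineage that binds E-boxes. H3K27ac is found at enhancers and promoters in use, and H3K4me3 is found for the most part at promoters.

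Promoter sequences were planned for both genes, but the sequence source held no entry for Sox9, so the promoter of Sox2 is shown alone. The sequence comes from RefSeq for GRCm38.p6, on the plus strand, and its place on mm9 was not determined. It runs from 250 bases before the annotated start to the first transcribed base, with the E-box (CANNTG) in capitals.
Sox2: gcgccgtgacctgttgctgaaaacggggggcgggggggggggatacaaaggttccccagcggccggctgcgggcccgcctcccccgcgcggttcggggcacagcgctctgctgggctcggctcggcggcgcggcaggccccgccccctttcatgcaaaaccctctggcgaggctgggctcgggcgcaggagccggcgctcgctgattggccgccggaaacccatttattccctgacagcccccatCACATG
The CANNTG motif reads as CANNTG on both strands, and in the window of 300 bases (250 before and 50 after the start) Sox2 held 1 copy, CACATG, which ends at the start itself. Of the 32851 promoter windows of that length in the table, 72.3% held at least 1 copy. The window held 27 CpG, against a median of 7 over the table, and 15.5% of windows held as many. Of 20 other progenitor genes chosen for this question (such as Sox1, Pax6, Hes1 and Nes), 15 were in the table and 9 of these held an E-box.

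Over the whole lists, 39201 Olig2, 56600 and 69365 H3K27ac (control and Olig2cKO), and 44676 and 48885 H3K4me3 peaks were listed. The score of a peak is the one given by the authors' peak caller. It is not scaled between libraries, so each peak is placed by the share of its own list that scored at least as high, and these shares do not measure a change between genotypes. A peak without an overlapping peak of the same mark in the other genotype is called genotype-only, which says nothing of signal under the threshold of the caller. Depth is unknown, and every contrast of genotypes compares 2 libraries without a replicate check.

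Near the Sox2 gene position, H3K27ac was listed in Olig2cKO tumours and not in control tumours. The Olig2cKO list held a peak over the gene position (chr3:34547911-34549244, score 181.6, 1334 bp) and a peak next to it (chr3:34546592-34547797, score 117.11, 1206 bp). The first of these passed the gene position by 244 bp, less than the precision of that position, so its overlap with the gene start is not resolved. The list further held a peak 13.6 to 7.4 kb below the gene position (chr3:34535428-34541622, score 552.66, 6195 bp), which was among the upper 13.1% of its list. In the control H3K27ac list the nearest peaks lay 31.2 kb below and 27.9 kb above the gene position, and the 59.1 kb between them held none. The 3 Olig2cKO peaks near the gene were therefore Olig2cKO-only, as were 30.9% of all peaks of that list. The widest of the 3 can be set among the 21464 Olig2cKO-only H3K27ac peaks of the genome, of which 138 (0.643%) scored at least as high and 94 (0.438%) were at least as wide. In that list 3 peaks, this one included, were both.

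H3K4me3 was listed in both genotypes just below Sox2, at the site of the wide acetylation peak. In control tumours the peak ran from 12.6 to 7.3 kb below the gene position (chr3:34536391-34541671, score 1773.47, 5281 bp, upper 11.5% of its list). In Olig2cKO tumours it ran from 13.0 to 4.7 kb below (chr3:34536003-34544314, score 207.72, 8312 bp, upper 62.3%), and was 3031 bp wider. Neither H3K4me3 list held a peak over the gene position. The control peak overlapped no control H3K27ac peak. Of the 5160 control H3K4me3 peaks with at least its score, 199 (3.86%, exact 95% interval 3.35 to 4.42) overlapped none. Of 41044 control H3K4me3 peaks shared with Olig2cKO tumours, 3357 (8.18%) carried H3K27ac in Olig2cKO tumours alone, and at Sox2 these were 2 of 6.

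**Figure D1:**
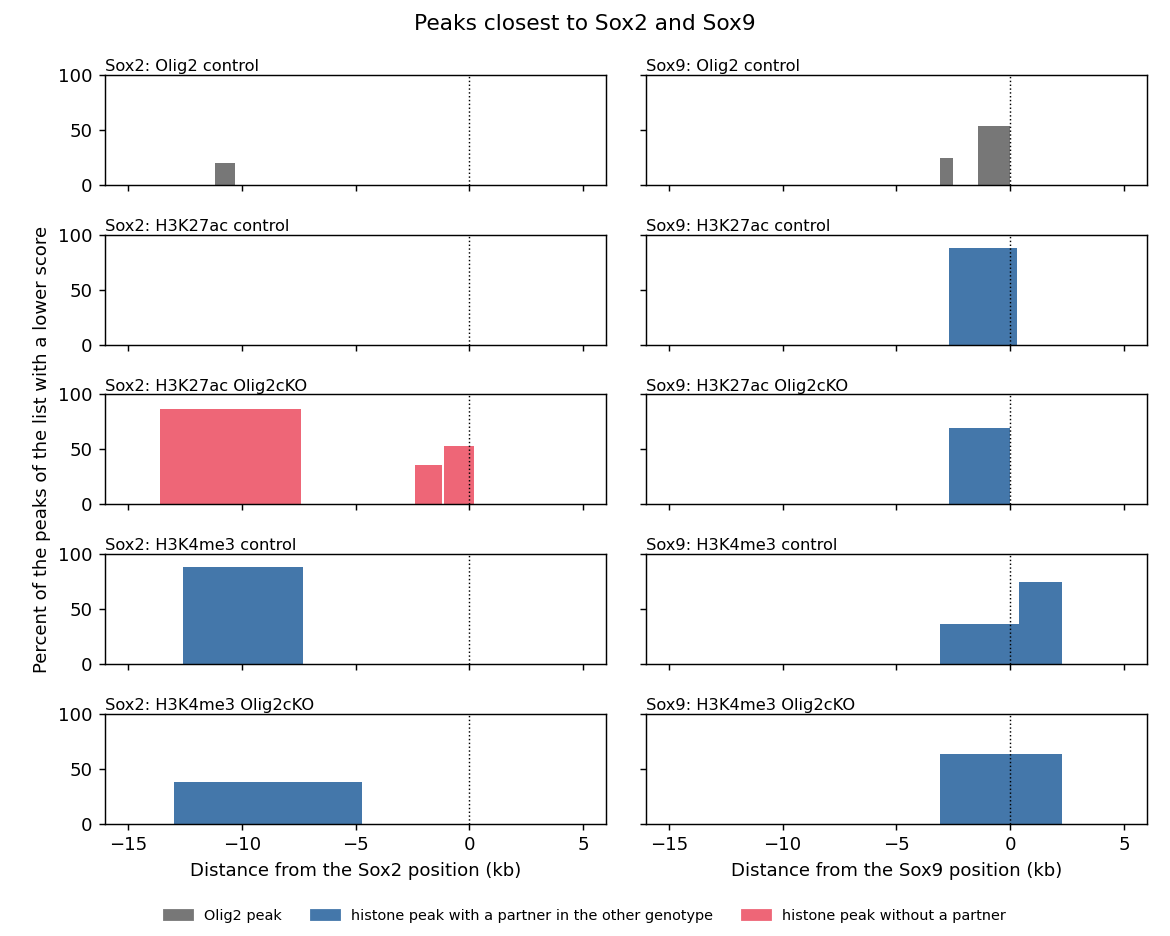
Peaks from 16 kb below to 6 kb above the gene position (x axis, kb) at Sox2 (left) and Sox9 (right), 1 row for each library; bar width is peak width and bar height is the percent of the peaks of that list with a lower score. At Sox2 the control H3K27ac row is empty and the Olig2cKO row holds 3 peaks without a partner, whereas at Sox9 both H3K27ac rows hold a peak that reaches the gene position; the Sox9 Olig2cKO peak of score 50.1, 9.8 kb below, is too low to be seen.

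Peak width may limit how these results can be read. The widest peak was 9063 bp in the control H3K27ac list and 8977 to 9285 bp in the other 3 histone lists, and the number of control H3K27ac peaks fell from 226 at 7 to 8 kb and 86 at 8 to 9 kb to 2 at 9 kb or more. A marked stretch wider than that could thus be missing from a list. Whether the empty 59.1 kb of control H3K27ac at Sox2, or the H3K4me3 lists over the gene position, lacked such a stretch was not tested. Scores also fell with width in wide peaks: the median of Olig2cKO H3K4me3 peaks was 187.13 at 8 to 9 kb, close to the 207.72 of the Sox2 peak, and 1570.46 at 3 to 4 kb. The part of width in the 2 unlike H3K4me3 scores below Sox2 was not tested.

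**Figure D2:**
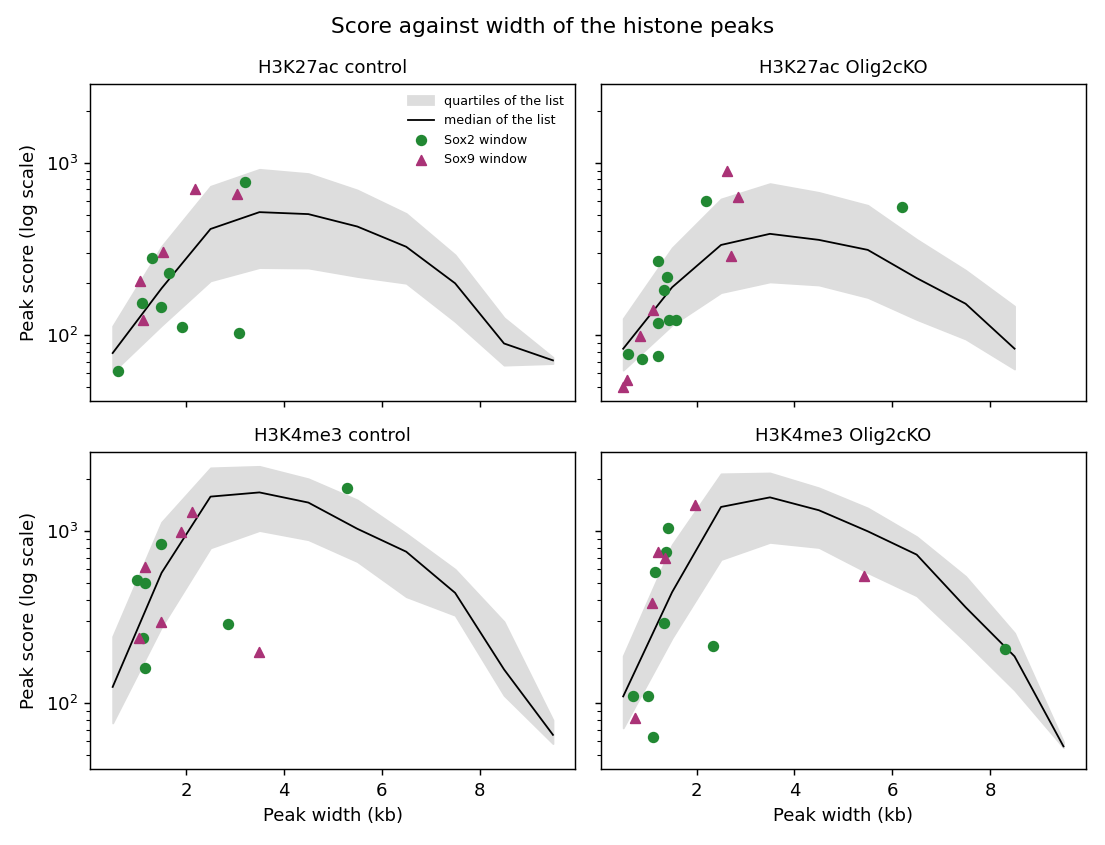
Score (y axis, log scale) against width (x axis, kb) for the histone peaks in the Sox2 (circles) and Sox9 (triangles) windows, with the median (line) and quartiles (grey) of all peaks of the list in width classes of 1 kb. The Olig2cKO H3K27ac peak of 6195 bp below Sox2 lies above the grey band, while the Olig2cKO H3K4me3 peak of 8312 bp lies on the median for its width.

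Below Sox2, on the side of lower coordinates, the 4 H3K4me3 sites farthest out were listed in both genotypes. They lay 97.8 to 96.6 kb (control score 496.3, Olig2cKO score 758.99), 90.2 to 87.3 kb (288.27 and 216.27), 80.5 to 79.4 kb (238.31 and 292.11) and 72.4 to 71.4 kb (517.87 and 580.62) below the gene position. None of these 4 control peaks overlapped control H3K27ac, as was the case for 18.4 to 25.0% of the control H3K4me3 peaks with at least the score of each. The outermost alone overlapped H3K27ac in Olig2cKO tumours, a narrow Olig2cKO-only peak of 589 bp (chr3:34451372-34451960, score 77.31). The H3K4me3 peaks of Olig2cKO tumours were wider at 3 of the 4 sites, by 208, 204 and 161 bp, and at the second site the control peak was wider (2860 against 2339 bp).

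Farther below Sox2 than the wide site, H3K27ac was listed as shared and genotype-only peaks with scores of 72.04 to 229.48. The shared peaks lay 57.4 to 55.8 kb below the gene position (control score 229.48, Olig2cKO score 122.18) and 32.3 to 31.2 kb below it in control tumours (153.58 and 215.66). A control-only peak of 3075 bp had a score of 102.94 (chr3:34463723-34466797). Another control-only peak lay 42.1 to 40.6 kb below Sox2 (chr3:34506942-34508419, score 145.68). Olig2cKO-only peaks lay at chr3:34489588-34490803 (score 75.83) and chr3:34528437-34529330 (score 72.04). These 2 scored low for their list, where 81.6% and 83.7% of the peaks scored at least as high.

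Of the 3 Olig2cKO-only H3K4me3 peaks at Sox2, 2 lay on H3K27ac peaks of the same tumours. Of all Olig2cKO H3K4me3 peaks that scored at least 64.01, the lowest score of these 3, 32.0% overlapped no Olig2cKO H3K27ac peak. The share among Olig2cKO-only H3K4me3 peaks of the genome was not computed. The peak at chr3:34492181-34493183 (score 110.05) overlapped the acetylation shared by both genotypes 57.4 to 55.8 kb below the gene. The peak at chr3:34528856-34529563 (score 110.6) overlapped the Olig2cKO-only acetylation of score 72.04, so that the site carried both marks in Olig2cKO tumours and no listed peak in control tumours. That pattern was found in 1564 of 95655 regions of overlapping peaks over the genome (1.64%). The remaining Olig2cKO-only H3K4me3 peak, 20.7 to 21.8 kb above the gene position, had a score of 64.01 and no acetylation.

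Above Sox2 the acetylated sites inside the window were shared by the genotypes, apart from 1 weak control-only peak. Just outside the window, a control H3K27ac peak without H3K27ac of Olig2cKO tumours overlapped an Olig2 peak that crossed the edge. The highest scores of both H3K27ac lists in the window belonged to a site 70.9 to 74.1 kb above the gene position. It scored 777.94 over 3196 bp in control tumours (chr3:34619929-34623124) and 603.39 over 2186 bp in Olig2cKO tumours (chr3:34620505-34622690), which put it in the upper 9.29% and 11.4% of the lists. It was also the site of the highest Olig2 score of the window (283.96, upper 7.53%). H3K4me3 was listed there in control tumours alone (chr3:34620602-34621758, score 159.83). A site 41.6 to 42.9 kb above the gene carried H3K27ac in both genotypes (control 280.44, Olig2cKO 269.11) and H3K4me3 in both (843.32 and 1037.61, the highest Olig2cKO score in the window), and no Olig2 peak. Another shared acetylation peak 27.9 to 29.9 kb above the gene had scores of 110.42 and 122.37. The control-only peak inside the window (chr3:34641287-34641902, score 61.61) lay 92.3 kb above the gene position.

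**Figure D3:**
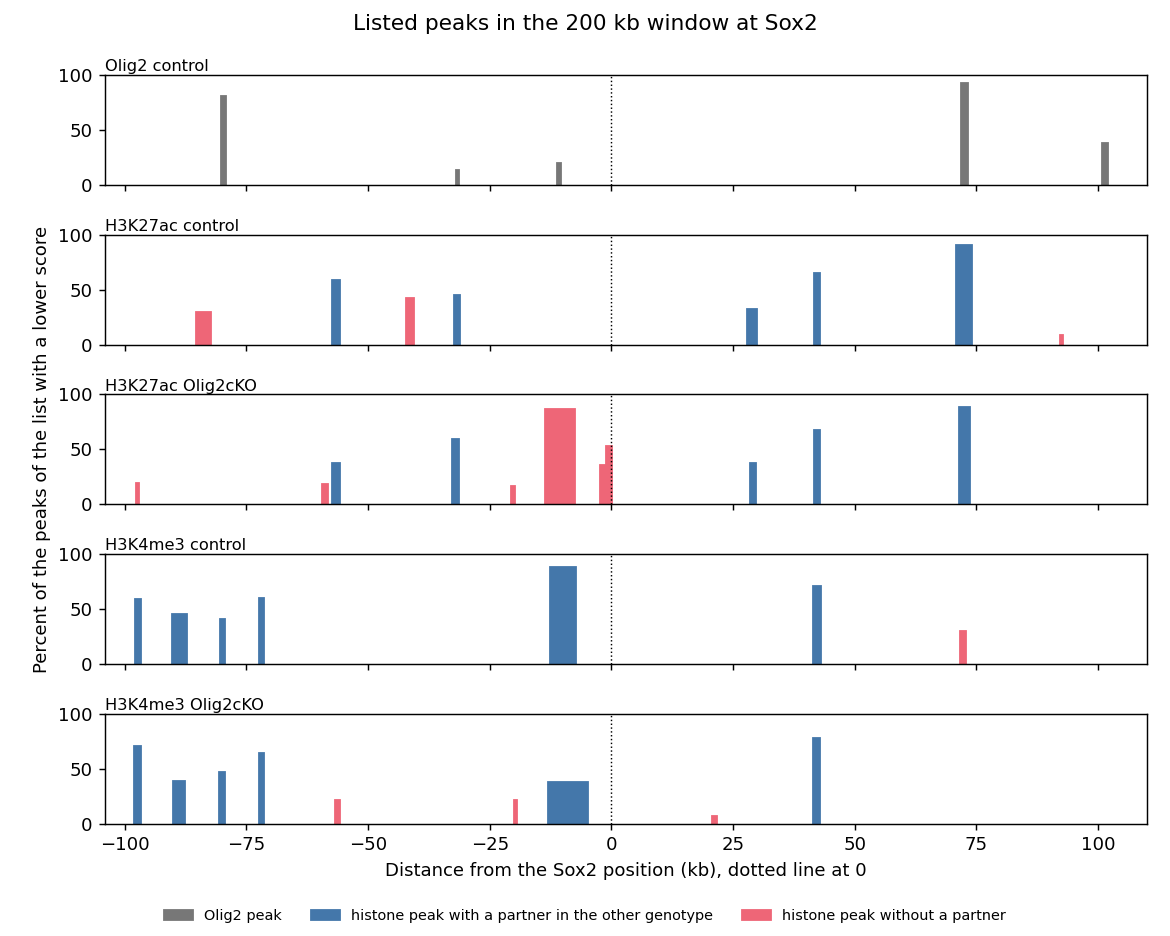
Peaks of the 5 libraries in the window at Sox2 against distance from the gene position (x axis, kb); bar height is the percent of the peaks of that list with a lower score. Peaks without a partner (red) were 3 of 8 and 6 of 11 for H3K27ac (control and Olig2cKO), against 17.9% and 30.9% of the whole lists. For H3K4me3 they were 1 of 7 and 3 of 9, against 8.13% and 21.4%. The Olig2cKO H3K27ac row has 3 red peaks between 13.6 kb below the gene position and the position itself.

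The 5 Olig2 peaks at Sox2 carried unlike sets of marks. The peak of highest score (chr3:34620948-34622284, 283.96) lay on H3K27ac of both genotypes and on control H3K4me3. The next (chr3:34468825-34469890, 177.71) lay on H3K4me3 of both genotypes without H3K27ac. A weak peak 10.3 kb below the gene (chr3:34537835-34538744, score 61.42) lay inside the wide site, on H3K4me3 of both genotypes and H3K27ac of Olig2cKO tumours. That combination was found in 895 of the 95655 regions (0.936%). Another weak peak (chr3:34516964-34517643, score 57.47) lay on H3K27ac shared by both genotypes. The last (chr3:34649931-34650966, score 78.14) crossed the edge of the window and lay on a control H3K27ac peak just outside it (chr3:34650034-34650919, score 98.78). No Olig2 peak was listed over the Sox2 position, and 0 of the 5 had peaks of all 4 histone lists, against 42.5% of Olig2 peaks in the genome.

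At the Sox9 gene all 5 lists held a peak at the gene position. H3K27ac ran from 2.7 kb below to 0.3 kb above it in control tumours (chr11:112641278-112644322, score 657.79, 3045 bp, upper 12.6% of the list). In Olig2cKO tumours it ran over chr11:112641291-112644003 (score 287.92, 2713 bp, upper 30.5%). H3K4me3 was listed in control tumours as 2 peaks, chr11:112640867-112644354 (score 198.86) and chr11:112644380-112646274 (score 984.86). The Olig2cKO list held 1 peak over the same stretch (chr11:112640889-112646317, score 544.92, 5429 bp). Olig2 had a peak that ended at the gene position (chr11:112642619-112644011, score 99.27) and a weaker one 2.5 kb below (chr11:112640938-112641494, score 64.79). The Olig2 and the Olig2cKO H3K27ac peak passed the gene position by 11 and 3 bp, and the control H3K27ac and H3K4me3 peaks by 322 and 354 bp. Each of these lengths is less than the precision of that position.

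A site 27.3 to 30.1 kb above Sox9 was listed in all 5 libraries. H3K27ac scored 703.81 in control (chr11:112671744-112673921) and 634.41 in Olig2cKO tumours (chr11:112671282-112674135), in the upper 11.2% and 10.4% of the lists. H3K4me3 scored 1290.62 and 1412.22, the highest values of each H3K4me3 list in the window. The highest Olig2 score of the window, 189.31, belonged to this site too (chr11:112671838-112673678, upper 17.3%).

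Farther above Sox9, a site 56.2 to 58.8 kb from the gene had the highest Olig2cKO H3K27ac score of either window. It scored 896.11 over 2626 bp in Olig2cKO tumours (chr11:112700189-112702814), in the upper 5.18% of the list. In control tumours it scored 304.91 over 1536 bp (chr11:112700539-112702074, upper 32.0%). H3K4me3 there scored 294.7 in control and 696.31 in Olig2cKO tumours, at upper shares of 53.9% and 31.2%, with widths of 1488 and 1357 bp. An Olig2 peak of score 66.26 lay on it. With 1 library of each kind, a difference between genotypes at this site cannot be told apart from a difference between the libraries.

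The other Olig2 peaks in the Sox9 window scored below the median of their list, 93.38. The peak at chr11:112685121-112685943 (score 85.05) lay on H3K27ac of both genotypes (control 122.69, Olig2cKO 139.75) without H3K4me3. The peak at chr11:112731227-112731923 (score 68.46) lay on H3K4me3 of both genotypes (619.03 and 758.15) without H3K27ac. The outermost on the lower side (chr11:112569743-112570312, score 53.14) lay on both marks in both genotypes. Its H3K27ac peak scored 206.86 in control and 54.91 in Olig2cKO tumours, and was 1058 and 574 bp wide.

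Genotype-only peaks at Sox9 were listed in Olig2cKO tumours, at shares near those of the whole lists. Of the 7 Olig2cKO H3K27ac peaks, 2 (28.6%, against 30.9% of the list) were Olig2cKO-only, at chr11:112634164-112634656 (score 50.1, where 99.9% of the list scored at least as high) and chr11:112678591-112679433 (score 98.94). The second of these also carried the Olig2cKO-only H3K4me3 peak of the window (chr11:112678733-112679474, score 81.69), 1 of 6 (16.7%, against 21.4%). Neither overlapped an Olig2 peak, and no control-only peak of either mark was listed.

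**Figure D4:**
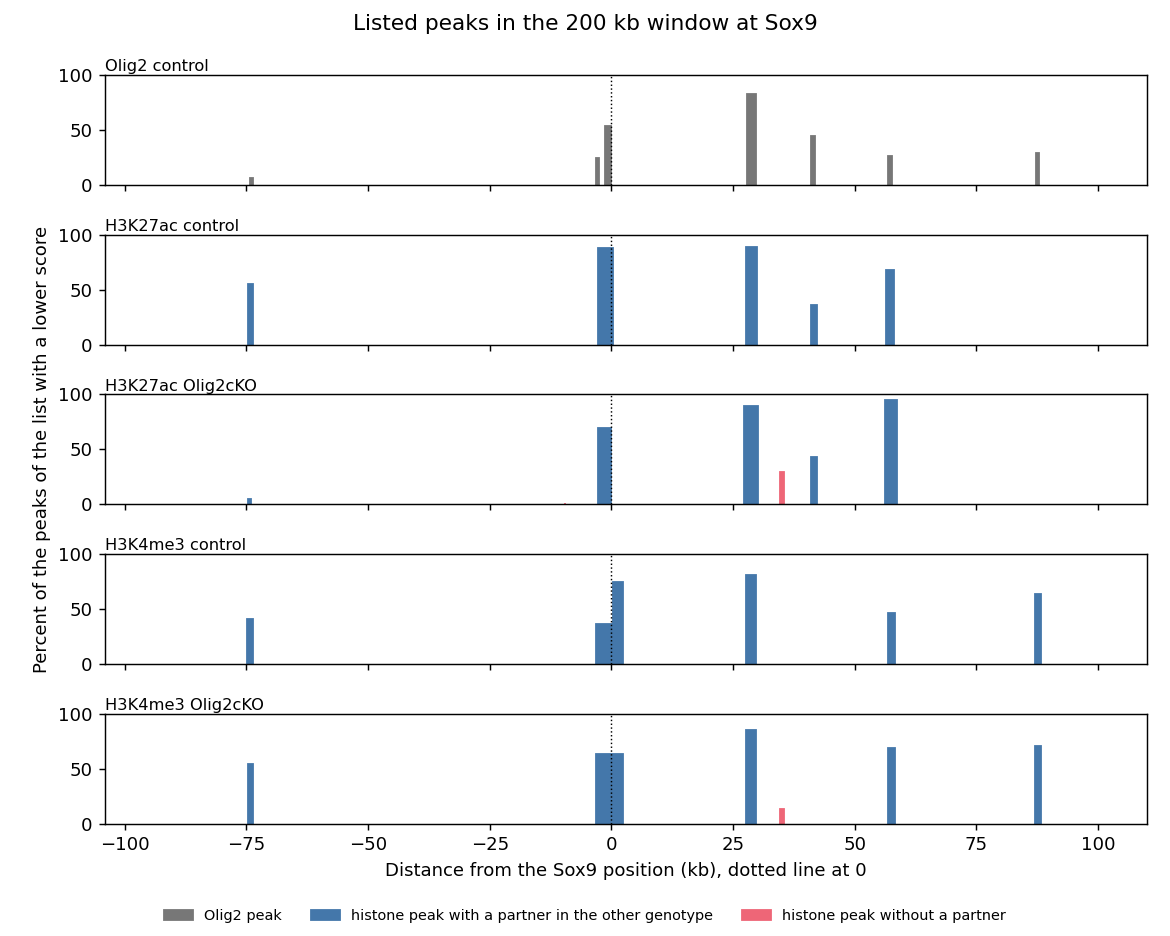
Peaks of the 5 libraries in the window at Sox9 against distance from the gene position (x axis, kb); bar height is the percent of the peaks of that list with a lower score. The Olig2 peaks sit on shared histone peaks, and the 3 peaks without a partner (red) are in the Olig2cKO rows, that of score 50.1, 9.8 kb below the gene position, being too low to be seen.

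The shares of genotype-only peaks over all listed peaks were higher at Sox2 than at Sox9 for each mark and genotype, but the counts were too small to separate either locus from the whole lists. With the upper 50% of both lists the order turned for Olig2cKO-only H3K4me3, at 0 of 3 peaks at Sox2 and 2 of 5 (40.0%) at Sox9. With the upper 50% of the counted list against the whole other list, the shares were 0 at both loci apart from Olig2cKO-only H3K27ac at Sox2 (2 of 5, 40.0%). Genome shares were not computed under these settings, so these values cannot be set against the genome shares that follow, which are for full lists. Of the control H3K27ac peaks, 3 of 8 at Sox2 (37.5%, exact 95% interval 8.52 to 75.5) and 0 of 5 at Sox9 (0 to 52.2) were control-only, against 17.9% in the genome. Olig2cKO-only H3K27ac peaks were 6 of 11 at Sox2 (54.5%, 23.4 to 83.3) and 2 of 7 at Sox9 (28.6%, 3.67 to 71.0), against 30.9%. For H3K4me3, 1 of 7 control peaks at Sox2 (14.3%, 0.361 to 57.9) and 0 of 6 at Sox9 (0 to 45.9) were control-only, against 8.13%. Olig2cKO-only H3K4me3 peaks were 3 of 9 (33.3%, 7.49 to 70.1) and 1 of 6 (16.7%, 0.421 to 64.1), against 21.4%. Each of these 8 intervals included the share of the whole list. The difference between the loci was not tested.

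**Figure D5:**
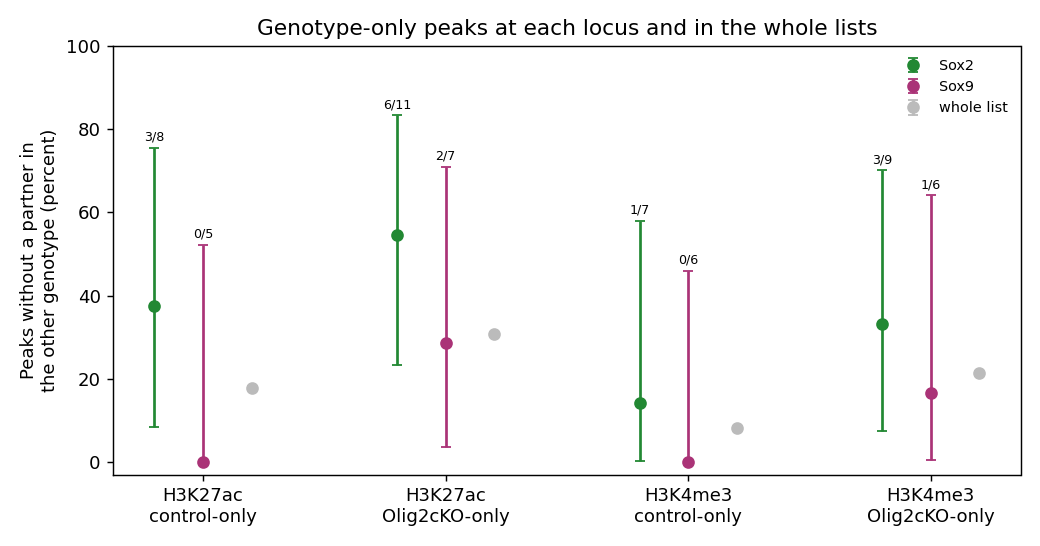
Percent of peaks without a partner in the other genotype (y axis) for each mark and genotype at Sox2, at Sox9 and in the whole list; bars are exact 95% binomial intervals, and the counts of peaks stand above the bars of the loci. The Sox2 points lie above the Sox9 points, and every interval at a locus includes the whole-list value.

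Taken list by list, each histone list had peaks at a larger share of the Olig2 peaks at Sox9 than at Sox2, a difference that was not tested. Control H3K27ac was listed at 3 of 5 Olig2 peaks at Sox2 (60.0%, 14.7 to 94.7) and at 6 of 7 at Sox9 (85.7%, 42.1 to 99.6), against 68.9% of all Olig2 peaks. For control H3K4me3 the counts were again 3 of 5 and 6 of 7, against 55.6%. In Olig2cKO tumours H3K27ac was listed at 3 of 5 and 6 of 7 of these sites (70.2% of all Olig2 peaks), and H3K4me3 at 2 of 5 and 6 of 7 (58.1%). Peaks of all 4 histone lists were present at 0 of 5 Olig2 peaks at Sox2 (0 to 52.2%) and at 5 of 7 at Sox9 (71.4%, 29.0 to 96.3). Both intervals included the share of all Olig2 peaks, 42.5%. Of the 5 at Sox9, 2 lay on the same control H3K27ac peak at the gene position. Seen from the marks, 2 of 8 control H3K27ac peaks at Sox2 and 5 of 5 at Sox9 overlapped an Olig2 peak, against 49.5% in the genome. The intervals, 3.19 to 65.1% and 47.8 to 100%, overlapped each other and included that share. The counts were 3 of 11 and 5 of 7 for Olig2cKO H3K27ac (42.5% in the genome), 3 of 7 and 5 of 6 for control H3K4me3 (55.7%), and 2 of 9 and 5 of 6 for Olig2cKO H3K4me3 (50.3%).

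When overlapping peaks of the 5 lists were merged into regions, Sox2 had 19 and Sox9 had 8. At Sox9, 4 of the 8 regions held all 5 lists, which 17.6% of the regions in the genome did, and at Sox2 0 of 19 did. Regions with a peak of 1 list alone were 7 of 19 at Sox2 and 1 of 8 at Sox9, against 34.0%. H3K27ac was listed in both genotypes in 5 regions at each gene, in Olig2cKO tumours alone in 6 at Sox2 and 2 at Sox9, and in control tumours alone in 4 at Sox2 (1 of them at the edge of the window) and 0 at Sox9. Over the genome these were 46.3%, 21.6% and 9.98% of the regions. H3K4me3 was listed in both genotypes in 6 regions at Sox2 and 5 at Sox9, against 37.6%.

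Widths were compared for peaks with exactly 1 partner. Of the 5 H3K27ac pairs at Sox2, 1 was wider in Olig2cKO tumours, and of the 5 at Sox9, 2 were, against 57.0% of all pairs. Sox2 had 4 of 6 H3K4me3 pairs that were wider in Olig2cKO tumours and Sox9 had 2 of 4, against 76.7%. As Olig2cKO minus control, the median difference in width was -88 bp for H3K27ac at Sox2, -27 bp for H3K27ac at Sox9, 182.5 bp for H3K4me3 at Sox2 and -42.5 bp for H3K4me3 at Sox9. Over all pairs it was 73 bp for H3K27ac and 150 bp for H3K4me3.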

How the data were processed

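Per the submitters' processing notes, CASAVA, Bowtie2 and MACS were used with the mouse build mm9. Versions, settings, read depth and any input control are not given in the sources used here. The deposited tables give, for 1 library each, the position of every peak and the score assigned by the peak caller of the authors. Scores are not scaled between libraries and served only to rank peaks inside a list. Coordinates count from 1. The full list of floxed alleles that both genotypes share is not reported here. Peaks were matched over the whole lists at an overlap of at least 1 bp (Python 3.11.15, numpy 2.4.6, pandas 2.3.3), which was checked against bedtools 2.31.1 in 3 comparisons with identical counts and tested on simulated data. Shares carry exact binomial (Clopper-Pearson) intervals at 95% (scipy 1.17.1), which reflect counting error alone and treat neighbouring peaks as independent. Genotypes were not tested against each other, since a group is 1 library. The lists were also merged into regions of overlapping peaks. The windows, members and lists were chosen with earlier results of these data known. Peaks named singly are those over or nearest the gene position, the 3 highest scores of each list in each window, the 5 highest Olig2 scores and the genotype-only histone peaks. The remaining member peaks are given more briefly. Alternatives changed the score threshold, list length, overlap, gap, merging of peaks or the window. No gene annotation of mm9 was used here, so a planned count of peaks at the starts of other progenitor genes was not run. Figures were drawn with matplotlib 3.10.9.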

Additional observations from a re-analysis of the deposited data

How the results depend on the processing

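The 12 shares were recomputed under 7 alternatives, which gave 84 values, and 70 lay inside the interval of the reported share. The shares of the whole lists were not recomputed under the alternatives. Most of the other 14 came from the upper 50% of the counted list against the whole other list, where 2 to 5 peaks were left at a locus. Control-only shares at Sox2 were then 0% of 3 H3K27ac and 0% of 4 H3K4me3 peaks. Olig2cKO-only shares were 0% for H3K27ac at Sox9 and for H3K4me3 at Sox2 and at Sox9. Olig2 peaks with control H3K27ac at Sox9, and with control H3K4me3 at Sox2 and at Sox9, were each 100% of 2. With the upper 50% of both lists, Olig2cKO-only shares were 0% for H3K27ac at Sox9 and for H3K4me3 at Sox2 (40.0% for H3K4me3 at Sox9, the reverse order of the loci), Olig2 peaks with control H3K27ac at Sox9 were 100%, and Olig2 peaks with control H3K4me3 at Sox2 were 0%. In the window of 100 kb, control-only H3K4me3 at Sox2 was 0% of 2 peaks and Olig2 peaks with control H3K27ac at Sox9 were 100% of 4. Equal list lengths, an overlap of 50%, a gap of 1 kb and merging within 1 kb left the 12 shares inside their intervals, which are wide. No paired analysis was possible because each group has 1 library. Depth is unknown, so a peak that was not listed cannot be told apart from one under the caller's threshold.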

Other observations

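Both windows held more peaks than the median stretch of 200 kb in each of the 5 lists. Set beside 13199 tiles of 200 kb on 20 chromosomes, the Sox2 window held 9 Olig2cKO H3K4me3 peaks, a number that 11.8% of tiles reached, and 11 Olig2cKO H3K27ac peaks, which 17.7% reached. For Sox9 the list that stood highest was Olig2, with 7 peaks, which 15.0% of tiles reached, and its 5 control H3K27ac peaks were matched or passed by 40.3%. In the other lists these shares were 18.7 to 27.8% at Sox2 and 24.5 to 36.6% at Sox9. The tiles lie on a fixed grid and include gene-poor stretches, so these values describe density and compare no genotypes.

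The share of genotype-only peaks rose again among the widest peaks of the control lists and of the Olig2cKO H3K27ac list. For H3K27ac it was 6.02% at 3 to 4 kb and 29.1% (19.8 to 39.9) at 8 to 9 kb, and for H3K4me3 1.43% and 33.3% (15.6 to 55.3). In the Olig2cKO lists the values were 10.1% and 20.0% (12.5 to 29.5) for H3K27ac, and 0.599% and 0 of 50 peaks for H3K4me3.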
